A study of Bos taurus with 4 samples.

Results

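Amino acid transporters are the membrane proteins that carry amino acids into and out of cells, and their transcripts were followed here in bovine blastocysts grown from cryopreserved morulae. The members were all features of the bovine embryo array whose gene symbol in the array's annotation table named the solute carrier family SLC1, SLC3, SLC6, SLC7, SLC36, SLC38 or SLC43. The choice used the symbol and no measured value. It gave 68 of 43794 features, for 53 of the 15229 genes that have a symbol on the array. Not every member carries amino acids. SLC6 also holds monoamine and creatine carriers, SLC43A3 carries purine nucleobases, and SLC7A6OS is a neighbour on the opposite strand of SLC7A6 that shares only the name. After the filter on low signal 49 features remained, for 41 genes.

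Pools of expanded blastocysts came from oocytes of abattoir ovaries, matured and fertilised in vitro with semen of a fertile bull and cultured to compact morulae. In the vitrified group (Vit, 4 pools) the morulae were exposed to ethylene glycol, dimethyl sulfoxide and sucrose and plunged into liquid nitrogen on a cryotop. In the slow-frozen group (SF, 4 pools) they were held in glycerol in straws, seeded with ice and cooled at a controlled rate before the plunge. All morulae were warmed and cultured on, and only those that became expanded blastocysts were pooled, 7 to a pool by the labels, although the methods allow fewer. A group is therefore a mixture of embryos that survived. RNA was amplified before labelling, and in each group replicates 1 and 2 carried the dye Cy5 and replicates 3 and 4 the dye Cy3. The methods put vitrified pools on 1 slide and slow-frozen pools on another, so slide and method of freezing cannot be told apart. Unfrozen embryos are not analysed here.

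Carriers differ in what they move and what drives them. The SLC1 carriers use sodium to bring in glutamate or to exchange small neutral amino acids, and the SLC38 carriers bring in glutamine, alanine and serine with sodium. Many SLC7 proteins are light chains that reach the plasma membrane only when bound to a heavy chain of the SLC3 family, and they exchange 1 amino acid for another. In mouse preimplantation embryos, carriers of this kind are known for the uptake of glycine as an osmolyte and for the uptake of leucine, which activates the growth regulator mTORC1 at the blastocyst stage. In many mammalian cells several of these genes are switched on by the transcription factor ATF4 when amino acids run short.

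The pools had median raw intensities of 109 to 384, with 63.3% to 74.1% of all features above background. Vitrified replicate 3 (56.6) and slow-frozen replicate 2 (-34.3) marked the ends of the first principal component, which held 24.8% of the variance. Of the markers of the blastocyst's lineages, 13 of 13 of the trophectoderm and 7 of 7 of the inner cell mass passed the filter. Their mean levels did not overlap between the groups: the trophectoderm markers lay at 10.91 to 11.01 (log2 intensity) in vitrified and 11.21 to 11.37 in slow-frozen pools, and the inner cell mass markers at 11.26 to 11.52 and 10.79 to 11.19. The markers did not all share these directions. In vitrified pools 10 trophectoderm markers were lower and 3 higher (TFAP2C, ELF3 and EOMES). Of the inner cell mass markers 6 were higher and 1 lower (NANOG). The adjusted test was passed by 0 of them, and no share over all genes stands beside the overlap of list means. The mean of 4 hypoblast markers lay at 10.26 to 10.60 in vitrified and 9.06 to 10.54 in slow-frozen pools, and that of 7 cumulus and granulosa markers at 7.85 to 8.04 and 7.89 to 8.14. Whether these markers have a part in any value given for a transporter was not tested. In pools of whole embryos, fewer cells of a type and less RNA per cell cannot be told apart.

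Signal above background was read for each of the 53 genes and in each pool. Background was set for each pool at the level that 95% of its 153 negative control spots did not exceed. A raw signal above it was found in all 8 pools for 29 features of 26 genes. Another 3 features exceeded it in no pool. SLC1, SLC7, SLC38 and SLC43 had 4 of 7, 8 of 13, 4 of 9 and 3 of 3 genes above background in all pools. For SLC3, SLC36 and SLC6 it was 1 of 2, 1 of 4 and 5 of 15 genes. The SLC6 carriers of neutral amino acids, 5 genes with 9 features, were all left out by the filter, which asked for at least 3 of 4 pools of a group. Among them were SLC6A14, a carrier of neutral and cationic amino acids, with 3 features that exceeded background in 2 pools at most, and SLC6A15, with 3 features that did so in 3 pools at most. SLC38A1, a glutamine carrier, exceeded background in 0 of 8 pools, while its relative SLC38A2 did so in all 8. The 12 genes left out were SLC1A7, SLC6A5, SLC6A12, SLC6A13, SLC6A14, SLC6A15, SLC6A16, SLC6A17, SLC6A18, SLC7A14, SLC38A1 and SLC38A4. A low signal on this array may be that of the feature and does not show that a gene is silent.

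**Figure D1:**
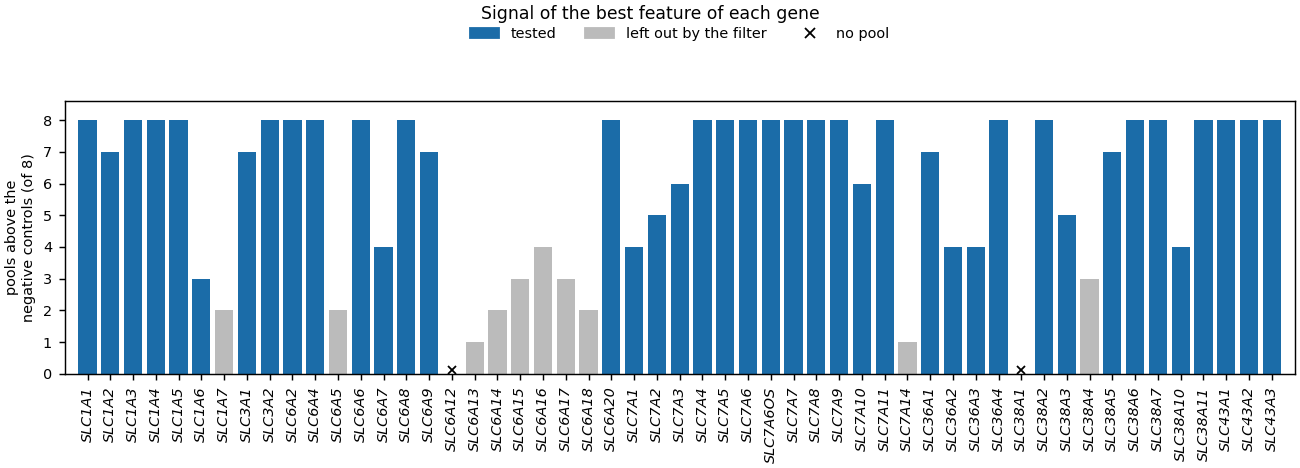
Number of the 8 pools (vertical axis) in which the best feature of each of the 53 genes was brighter than the negative controls. Blue bars are genes that were tested, grey bars are genes left out by the filter, and a cross marks 0 pools. Of the tested genes 26 reach 8 pools, and no gene left out is above 4.

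Vitrified and slow-frozen pools were compared to learn whether the method of freezing the morula is followed by different transporter levels in the blastocyst. None of the 41 genes passed the adjusted test, and 1 had an unadjusted p under 0.05. That gene was SLC7A8, which encodes the light chain LAT2, an exchanger of neutral amino acids, and it was 1.38-fold higher in vitrified pools. Differences are given as log2 intensity, vitrified minus slow-frozen, from limma with dye as a further term. Of all 11737 genes tested 5.94% had an unadjusted p under 0.05, 2.94% higher and 3.00% lower, so 1 of 41 transporters (1 higher, 0 lower) is no more than the share over the array. After Benjamini-Hochberg adjustment over all features 0 members passed, as against 0.00333% of all features, and adjusted p (limma) ran from 0.787 to 1.00. A fold of 2 together with an unadjusted p under 0.05, which the study's methods asked for, was reached by 0 members and 0.290% of all genes.

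The sizes of the differences are set beside those of all genes. In vitrified pools 19 of the 41 had the higher mean and 22 the lower, or 46.3% higher, beside 52.3% of all genes. The median difference was -0.05 and the median size of a difference 0.13, beside 0.01 and 0.12 over all genes. The largest difference, that of SLC7A8, was 0.46, and 38 of 41 differences were smaller than 0.3. The precision sets what can be read from this. The 95% interval of a difference had a median half-width of 0.38, and for 40 of 41 genes the whole interval lay within 1 of 0, which bounds the difference in intensity at 2-fold in either direction. The exception was SLC1A4. For 26 genes the interval reached beyond 0.5, so that a difference of that size was not excluded for them with 4 pools a group. Intensities on an array can understate a change of the transcript, and the bounds hold for the intensity.

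**Figure D2:**
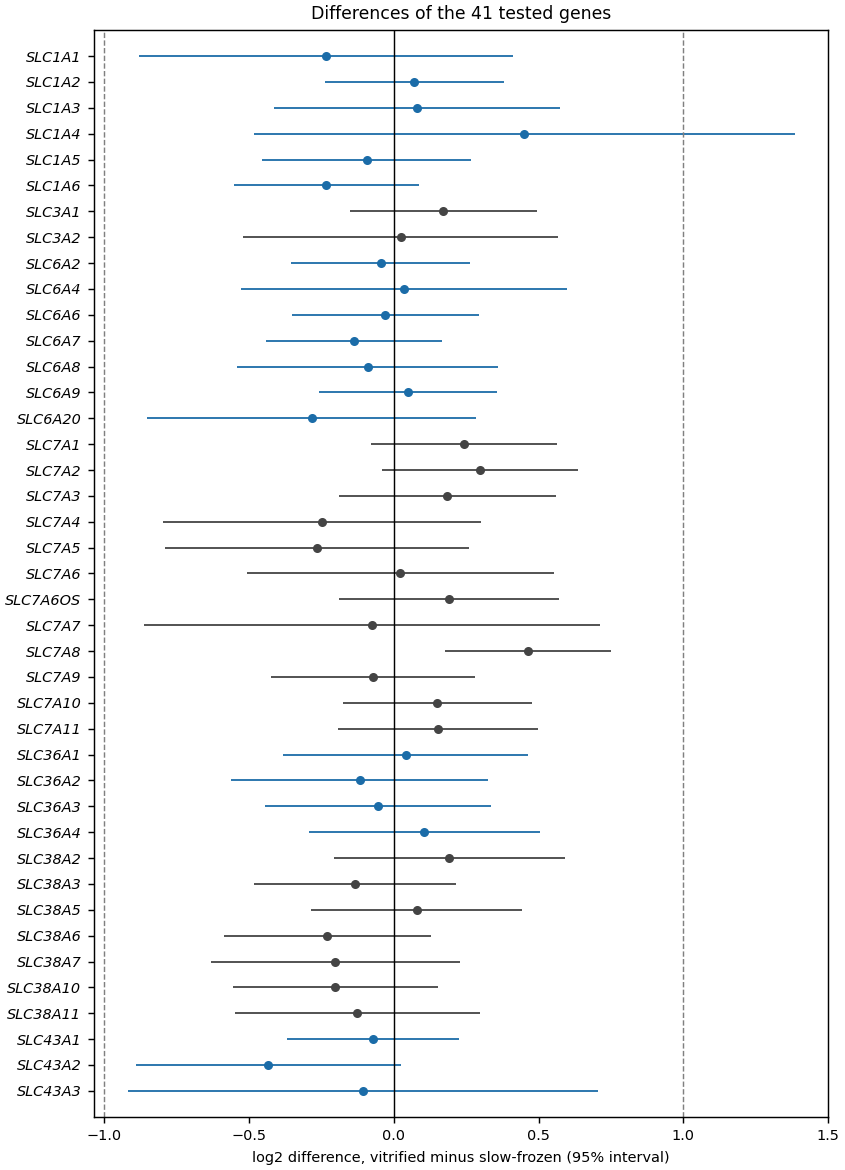
Log2 difference (vitrified minus slow-frozen, horizontal axis) of each of the 41 tested genes, as points with 95% intervals from limma with dye as a term, n = 4 pools per group. Families alternate in colour and dashed lines mark -1 and 1. The interval of SLC7A8 lies above 0, all others include 0, and that of SLC1A4 is the only one that passes 1.

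**Figure D3:**
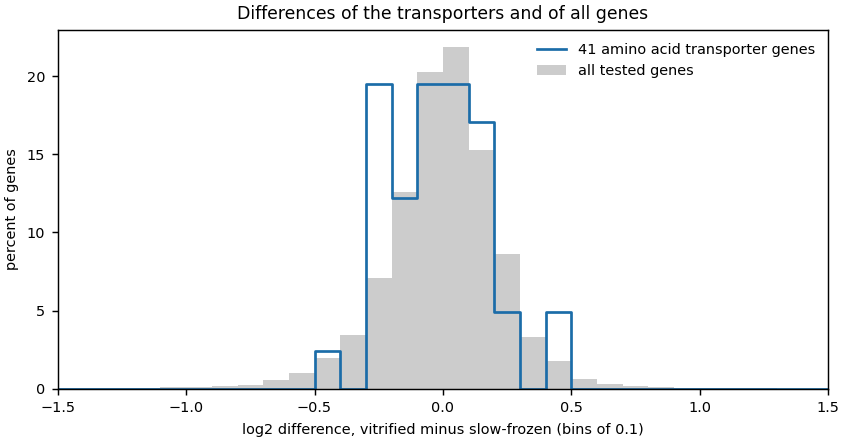
Distribution of the log2 differences of the 41 transporter genes (blue outline) and of all 11737 genes tested (grey), as percent of genes in bins of 0.1. The transporters range from -0.43 to 0.46 with a median of -0.05.

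The light chains and their partners held the gene with the smallest p. SLC7A8 had log2 intensities of 8.04, 8.25, 8.40 and 8.31 in vitrified replicates 1 to 4. In slow-frozen replicates 1 to 4 it had 7.59, 7.70, 7.90 and 7.95. Every vitrified pool was above every slow-frozen pool. Groups that did not overlap, in either direction, were found for no other member and for 2.83% of all genes. The means were 8.25 ± 0.15 and 7.79 ± 0.17 (SD, n = 4), and the difference was 0.46 ± 0.13 (SE) with an interval from 0.18 to 0.75. It was 0.50 among the Cy5 pools and 0.43 among the Cy3 pools. The unadjusted p of limma was 0.0045 and the exact two-sided permutation p 0.0286, the smallest that 70 ways of splitting 8 pools can give. The adjusted p was 0.787 (limma), so the gene did not pass the test over the array. SLC7A8 was measured by 1 feature, above background in all 8 pools. Its raw signal was modest, 147 to 550 beside pool backgrounds of 81 to 332. Its residual SD of 0.083 was the lowest of all members, at percentile 1.54 of all genes tested, and a small SD lowers the p of limma.

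Its heavy chain, SLC3A2, which also carries several other light chains to the membrane, had 8.22, 8.82, 7.62 and 8.56 in vitrified and 7.98, 8.19, 8.54 and 8.42 in slow-frozen pools. The lowest and the highest pool were both vitrified, and the difference was 0.02 ± 0.25 with an interval from -0.52 to 0.57. The other heavy chain, SLC3A1, which pairs with the cystine carrier SLC7A9, differed by 0.17 ± 0.15.

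SLC7A5, the light chain LAT1 that exchanges large neutral amino acids such as leucine, had 14.97, 14.90, 14.44 and 14.52 in vitrified pools. Its slow-frozen pools had 14.60, 14.82, 14.79 and 15.68. The groups overlapped, and slow-frozen replicate 4 was the highest of all pools. The difference of -0.26 ± 0.24 was 0.23 among the Cy5 pools and -0.76 among the Cy3 pools. SLC7A7, a light chain that exchanges cationic for neutral amino acids, had 11.75, 12.07, 11.71 and 12.11 in vitrified and 10.72, 12.81, 12.29 and 12.11 in slow-frozen pools. The slow-frozen pools held both its lowest and its highest value, and the difference was -0.08 ± 0.36. SLC7A11, the cystine and glutamate exchanger that supplies cysteine for glutathione, had 7.95, 7.72, 8.44 and 7.89 against 7.83, 7.64, 7.99 and 7.93, with overlapping groups and a difference of 0.15 ± 0.16. Over all 7 light chains tested, 4 had the higher mean in vitrified pools and 3 the lower, with a median of 0.02.

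Of the cationic amino acid transporters, which carry arginine and lysine, 3 of 4 tested had the higher mean in vitrified pools, with a median of 0.21. All of these 3 entered the test only through the vitrified pools. Such a filter favours this sign, so nothing is read from it. SLC7A1, a main arginine carrier of many cells, was above background in 4 of 4 vitrified and 0 of 4 slow-frozen pools. Its means were 7.44 and 7.20, and the interval of the difference, from -0.08 to 0.56, included 0. SLC7A2 had 7.28, 7.82, 7.50 and 7.46 in vitrified pools and 7.12, 7.18, 7.20 and 7.37 in slow-frozen pools, of which 1 was above background. The groups overlapped by a single pool on each side, and the difference was 0.30 ± 0.15. SLC7A4, a relative of these carriers, had 8.999, 8.85, 9.41 and 9.45 against 9.14, 9.92, 9.79 and 8.85, a difference of -0.25 ± 0.25. Its sign came from the Cy5 pools (-0.61), as the Cy3 pools gave 0.11.

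**Figure D4:**
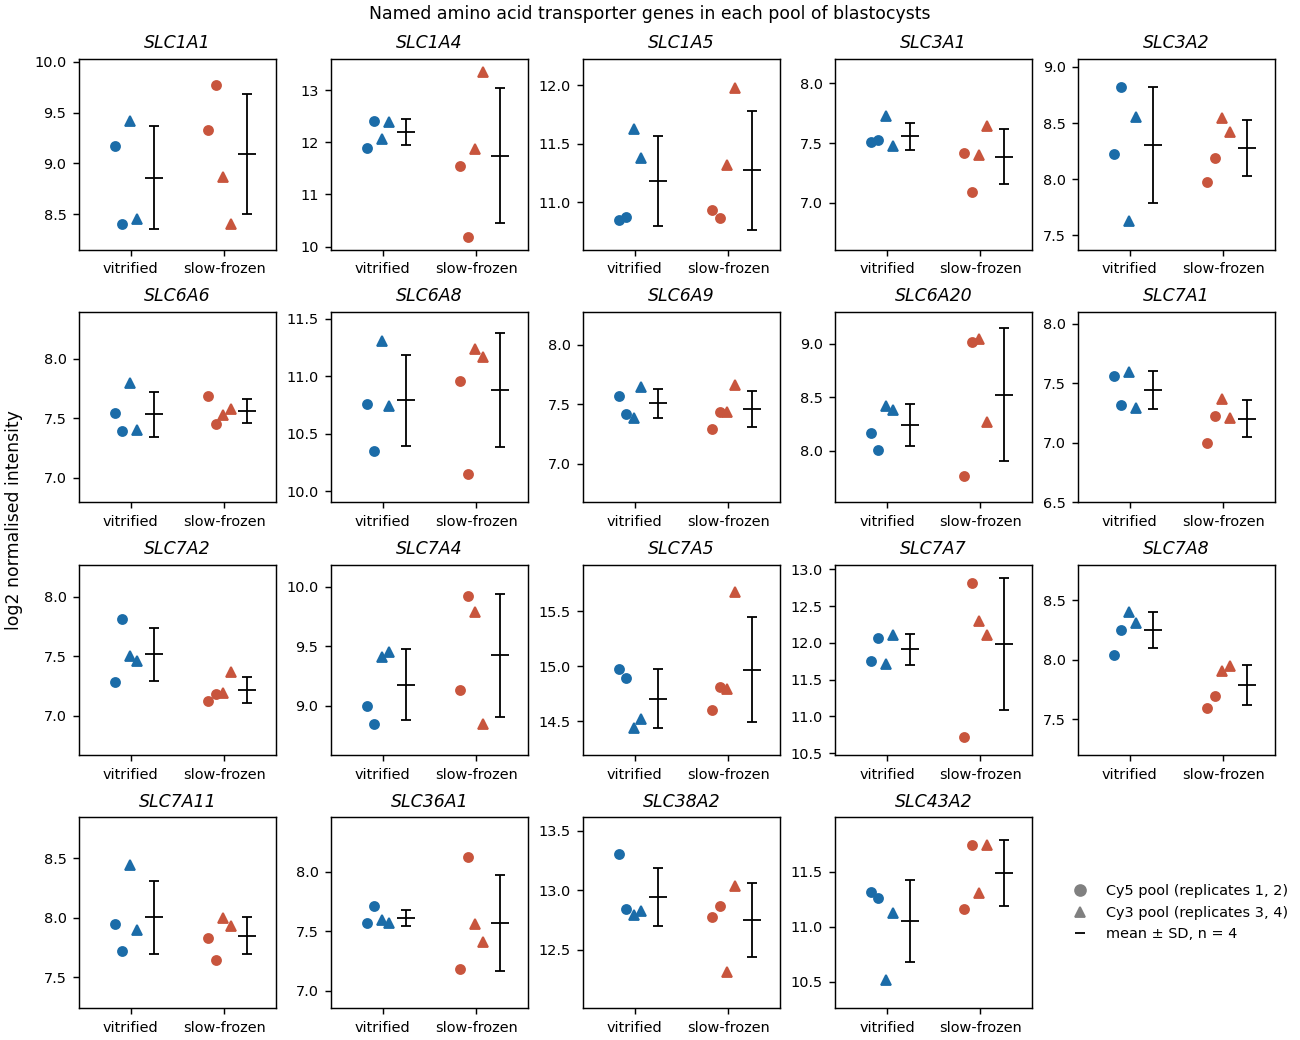
Log2 normalised intensity (vertical axis, each panel spanning its own range) of the 19 named genes in every pool, vitrified in blue and slow-frozen in orange. Circles are Cy5 pools (replicates 1 and 2), triangles Cy3 pools (replicates 3 and 4), and bars the mean ± SD, n = 4. SLC7A8 is the only gene whose groups do not overlap, and the slow-frozen pools of SLC1A4 span 10.19 to 13.34.

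The sodium-driven SLC1 carriers gave no shared direction, with 3 of 6 tested genes higher and 3 lower in vitrified pools. SLC1A4, which encodes ASCT1, an exchanger of serine, alanine and cysteine, had the second largest difference of all members, 0.45 ± 0.42, and the widest interval, from -0.48 to 1.39. It had 11.89, 12.41, 12.07 and 12.38 in vitrified pools, which lay close together (SD 0.25). Its slow-frozen pools had 11.55, 10.19, 11.86 and 13.34 and held both the lowest and the highest value (SD 1.29). The difference was 1.28 among Cy5 pools and -0.38 among Cy3 pools, so the sign turned with the dye and replicate numbers compared. Without slow-frozen replicate 2 it was 0.01 and without slow-frozen replicate 4 it was 0.91, so its place among the members was set by single pools. SLC1A5, the glutamine exchanger ASCT2, had 10.85, 10.87, 11.62 and 11.38 against 10.94, 10.87, 11.32 and 11.97, with overlapping groups and a difference of -0.09 ± 0.16. In the dye term of the fit its Cy5 pools were 0.69 below its Cy3 pools. An unadjusted p under 0.05 for dye was reached by 4 members and an adjusted one by 0 (limma). The share over all genes is not given for dye, so nothing is read from that count. Dye goes with replicate number in both groups, so dye and replicate cannot be told apart.

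The carriers of glutamate and aspartate in this family were split, with 2 of 4 tested genes higher and a median of -0.08. SLC1A1 had 9.17, 8.41, 9.41 and 8.45 in vitrified and 9.33, 9.78, 8.87 and 8.40 in slow-frozen pools. These ranges overlapped over most of their length, and the difference was -0.23 ± 0.29. SLC1A6 was above background in 0 vitrified and 3 slow-frozen pools, with means of 7.03 and 7.27. The interval of its difference, from -0.55 to 0.09, included 0. SLC1A3 had 3 features, and their differences of 0.08, -0.05 and -0.07 did not share a sign.

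Among the SLC6 carriers of glycine, proline, taurine and creatine the differences were small. SLC6A9, the glycine carrier GLYT1, differed by 0.05 ± 0.14. SLC6A6, the taurine carrier, differed by -0.03 ± 0.15. SLC6A8, the creatine carrier, had 10.75, 10.35, 11.31 and 10.74 against 10.96, 10.15, 11.24 and 11.17, with the lowest pool slow-frozen and the highest vitrified, and differed by -0.09 ± 0.20. SLC6A20, a carrier of proline, had 8.16, 8.003, 8.42 and 8.38 in vitrified pools, inside the range of 7.77, 9.02, 9.05 and 8.26 in slow-frozen pools. Its difference was -0.28 ± 0.26. Over the 5 genes of this class that were tested, 1 was higher and 4 were lower, and the pair of monoamine carriers, SLC6A2 and SLC6A4, differed by -0.05 and 0.04.

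The SLC38, SLC36 and SLC43 families hold carriers of glutamine, of small amino acids with protons, and of large neutral amino acids without an ion. All 3 SLC43 genes had the lower mean in vitrified pools, with differences from -0.43 to -0.07. SLC43A2, the facilitated carrier LAT4, had 11.32, 11.27, 10.51 and 11.13 in vitrified and 11.16, 11.74, 11.31 and 11.75 in slow-frozen pools. Vitrified replicate 3 was the lowest pool, and slow-frozen replicate 1 lay below vitrified replicates 1 and 2. Its difference of -0.43 ± 0.21, the lowest of all members, had an interval from -0.89 to 0.03, and was -0.16 among Cy5 and -0.71 among Cy3 pools. Its unadjusted p (limma) was 0.062, and it was 0.043 with a replicate block, 0.022 with the file as random block and 0.031 with the authors' ratios. By the methods the channels of a file come from different slides, so a file is no block of the hybridisation. Without vitrified replicate 3 the difference was -0.26 and without slow-frozen replicate 1 it was -0.60. SLC38A2, the sodium-coupled glutamine and alanine carrier SNAT2, had 13.31, 12.84, 12.79 and 12.83 against 12.78, 12.87, 12.32 and 13.04. Its groups overlapped, its difference was 0.19 ± 0.18, and its other 2 features gave -0.16 and -0.12. Of 7 SLC38 genes tested 2 were higher and 5 lower, with a median of -0.13. The 4 SLC36 genes were evenly split, and SLC36A1, the proton-coupled carrier PAT1 of lysosomes and the plasma membrane, differed by 0.04 ± 0.19. The counts of higher and lower genes in each family were the same after plain subtraction, without loess and with median centring, although the median of the SLC36 genes turned from -0.01 to 0.02 with median centring.

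The filter has to be borne in mind for 10 of the 41 genes. Of the genes that passed through vitrified pools alone, 4 of 4 were higher there (SLC7A1, SLC7A2, SLC7A3 and SLC7A10). Of those that passed through slow-frozen pools alone, 6 of 6 were lower (SLC1A6, SLC6A7, SLC36A2, SLC36A3, SLC38A3 and SLC38A10). Among the 31 genes that passed in both groups 15 were higher and 16 lower, with a median of -0.03. The 22 genes not named for their values differed by -0.23 to 0.19, and their smallest unadjusted p was 0.136.

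Some transporters varied far more between pools than between groups. The residual SD of the fit was 0.25 for the median transporter, like that of all genes (0.25), but 4 members were in the top 5% of all genes. SLC1A4 had a residual SD of 0.84, at percentile 99.7 of all genes tested, and its pools spanned 3.15. SLC43A3 (0.72), SLC7A7 (0.70) and SLC1A1 (0.55) stood at percentiles 99.0, 98.7 and 96.1. SLC43A3 had 11.83, 11.57, 12.48 and 10.61 in vitrified and 11.92, 11.74, 10.99 and 12.27 in slow-frozen pools. In this gene the extremes were both vitrified. Counted over the 41 genes, slow-frozen replicate 4 was the highest pool for 11, vitrified replicate 3 for 10 and slow-frozen replicate 2 for 8, while slow-frozen replicate 1 was the lowest for 10. The same count over all genes is not given, so these numbers cannot be called particular to the transporters.

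SLC1A4, taken up after its values were seen because it varied most, was compared with its other feature and with the genes of the amino acid response. That list holds ATF4, the kinase EIF2AK4 and targets of ATF4. Its other tested feature had 10.48, 10.70, 9.76 and 10.36 in vitrified and 9.59, 9.02, 9.80 and 11.60 in slow-frozen pools. It was likewise lowest in slow-frozen replicate 2 and highest in slow-frozen replicate 4, and its difference was 0.32. Over the 8 pools the features had a Pearson r of 0.91 and a Spearman rho of 0.88 (exact permutation p = 0.0035 and 0.0072, or 0.036 and 0.075 adjusted over 31 relations). Without the 2 pools farthest from the median, r was 0.73.

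Asparagine synthetase, ASNS, a gene long known as a target of ATF4, had 13.28, 13.48, 13.39 and 13.58 in vitrified and 13.22, 12.76, 13.49 and 14.52 in slow-frozen pools. It too was lowest in slow-frozen replicate 2 and highest in slow-frozen replicate 4, and its r with SLC1A4 was 0.92 and its rho 0.81 (adjusted exact permutation p of r = 0.060). Of 30 other genes, 23 of the response and 7 transporters, 26 had an r above 0 over the 8 pools. Of all other genes on the array 55.4% had an r above 0 with SLC1A4 over the same pools. Without the 2 pools farthest out 16 of the 30 had an r above 0, and the share of the array is not given for that. The adjustment for r was passed by 2 of the 30. They were MARS, the methionyl-tRNA synthetase (r = 0.92, rho = 0.90, adjusted exact permutation p of r = 0.027), and DDIT4, an inhibitor of mTORC1 (r = 0.84, rho = 0.86, p = 0.031 by the same test). An r at least as high as that of MARS was found in 0.256% of all other genes, and at least as high as that of DDIT4 in 1.28%. An r of at least 0.8 in size was found in 3.49% of them. The share of array genes that would pass the adjustment is not given, so nothing is read from the count of 2. NARS, the asparaginyl-tRNA synthetase, passed the adjustment for rho alone (r = 0.78, rho = 0.95). MARS, DDIT4, NARS and ASNS were picked by their likeness to SLC1A4. Without the 2 pools farthest out, r was 0.77 for MARS, 0.86 for DDIT4, 0.93 for NARS and 0.80 for ASNS. Among the 4 Cy5 pools it was 0.99, 0.96, 0.74 and 1.00, and among the 4 Cy3 pools 0.72, 0.73, 0.93 and 0.96, in the same order. For ATF4 itself r was 0.87 over 8 pools but -0.02 without those 2, so that relation rests on them. For GARS it fell likewise from 0.85 to -0.06, for CARS from 0.76 to 0.001 and for CEBPG from 0.73 to -0.53. Over 8 pools r was below 0 for MTHFD2 (-0.69), CTH (-0.68), AARS (-0.32) and SESN2 (-0.02). For the 7 transporters compared r was 0.67 for SLC1A5, 0.53 for SLC6A9, 0.47 for SLC7A5, 0.32 for SLC7A11, 0.31 for SLC3A2, 0.15 for SLC38A2 and 0.12 for SLC7A1. These pools share slide and dye in part. On the first principal component slow-frozen replicate 2 marked an end, vitrified replicate 3 lay farther out at the other, and slow-frozen replicate 4 lay between them (9.56).

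**Figure D5:**
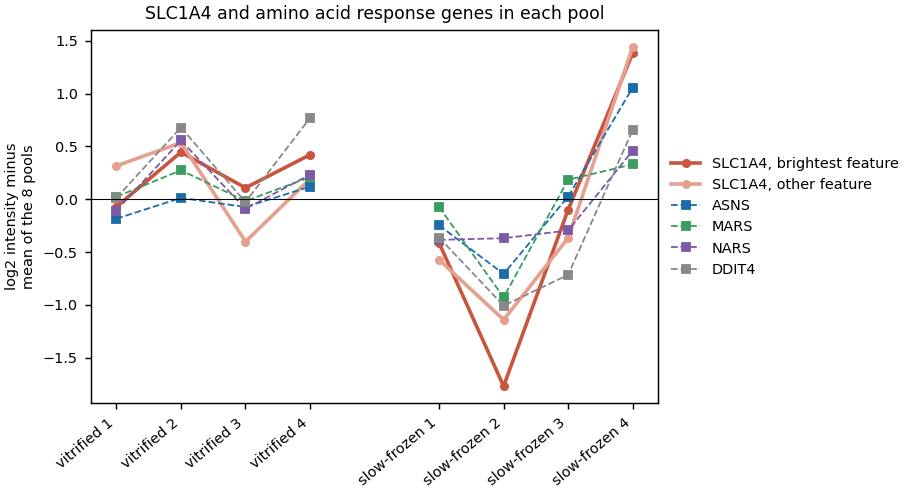
Log2 intensity minus the mean of the 8 pools (vertical axis) in each pool for both tested features of SLC1A4 (solid lines) and for ASNS, MARS, NARS and DDIT4 (dashed lines), which were picked by their likeness. Lines only join the points of a feature. For all 6 features slow-frozen replicate 4 is above the mean and slow-frozen replicate 2 below it.

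The genes that answer to amino acids or handle them elsewhere in the cell were read in the same fit. Of the amino acid response genes 23 were tested, and 10 were higher and 13 lower in vitrified pools. At an unadjusted p under 0.05, DDIT4 was higher (0.72), and CTH and MTHFD2, enzymes of cysteine synthesis and of mitochondrial folate metabolism, were lower (-0.60 and -0.60). Of 29 genes of mTORC1, its amino acid sensing and its regulation, 13 were higher and 16 lower. WDR59 (0.46), RRAGC (-0.40) and SESN1 (-0.36) had an unadjusted p under 0.05. Of 18 genes listed as amino acid carriers outside the 7 families, a list that also holds CLN3, 9 were higher and 9 lower. The mitochondrial glycine carrier SLC25A38 (0.37), CLN3, a lysosomal membrane protein (-0.60), and the lysosomal cystine exporter CTNS (-0.48) had an unadjusted p under 0.05. An unadjusted p under 0.05 was thus reached by 3 of 23, 3 of 29 and 3 of 18 genes, beside 5.94% of all genes. The medians of these 3 lists were -0.06, -0.03 and -0.04, and 0 of their genes passed the adjusted test. Mean levels of the response genes lay at 10.43 to 10.75 in vitrified and 10.27 to 11.05 in slow-frozen pools.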

How the data were processed

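Each of 4 deposited files joins the Cy5 and Cy3 channel of a vitrified and a slow-frozen pool. The deposited intensity values are the authors' median spot and local background brightness, without subtraction. The authors also deposited a table of log2 ratios. It matched log2 of Cy5 over Cy3 after subtraction and loess (r of at least 0.999996), so scale and direction were settled, with column medians from -0.00124 to 0.00192, and it served as an alternative. The build behind the array's design is not given in the sources used here.

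Each file held 45220 spots, and 58 features that the deposited marks list as ignored were left out. Background was corrected with normexp (offset 50), then loess within each file (control spots weight 0) and quantile normalisation over the 8 channels. Features above the negative controls in at least 3 of 4 pools of a group were kept (30034), and 13760 were left out. A gene was represented by its brightest kept feature. Of all features, 21790 had 1 symbol and 22004 none. Differences were fitted in R 4.3.3 by lmFit and eBayes of limma 3.58.1 (two-sided, dye as a term) and adjusted by Benjamini-Hochberg over 30034 features. Exact permutation tests ran over 70 splits. The procedure was tested on simulated data. P-values measure the spread between pools, of which the methods describe 1 tube per treatment and cycle. The number of arrays limits the precision.

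Members, lists and tests were chosen with earlier results of these data known. Genes named with values were those past an unadjusted p of 0.05, the 5 highest and 5 lowest differences, and a list of carriers chosen by role, of which SLC38A9 had no feature under that symbol. Genes of the correlations and of the other lists, SLC43A3 and the genes set by the filter were named beside this rule after their values were seen. Alternatives were plain subtraction, no loess, median centring, other filters, no dye term, a replicate block, the file as random block, the authors' ratios, the mean over features, each dye alone, and leaving out each pool. A search of promoters for a response motif was not run.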

Additional observations from a re-analysis of the deposited data

Results flagged for a closer look

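In 1 of 38 groups of 4 pools 1 pool lay far from the others: vitrified replicate 1 had 13.31 (log2 intensity) for SLC38A2, while the other vitrified pools had 12.79 to 12.84. Its gap to the nearest pool was 0.896 of the group's range, above Dixon's 95% critical value for 4 samples. Chance alone flags about 1 in 20 groups.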

How the results depend on the processing

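SLC7A8 kept its direction and an unadjusted p under 0.05 in every alternative with a test (p 0.0012 to 0.020, difference 0.42 to 0.53), and 0 transporters passed the adjusted test or the study's thresholds in any. The number with an unadjusted p under 0.05 was 1, but 2 with a replicate block, which adds SLC43A2 (p = 0.043), and 3 with the file as random block or with the authors' ratios, which add SLC43A2 and SLC7A2. A file joins channels of different slides, so this pairing was not made in the hybridisation. The replicate numbers were not taken to pair the pools, since the labels do not say whether a number marks a shared production cycle. Deviations of same-numbered pools correlated at 0.16, 0.09, -0.03 and 0.09. The own number was the best match for numbers 1 and 2 and not for 3 and 4. Same-numbered pools also share a dye, so these correlations cannot decide the pairing. The replicate block changed no other call. Leaving out each pool gave 1 to 4 genes under 0.05 (SLC43A2, SLC6A20 and SLC7A7 without slow-frozen replicate 1, SLC7A4 and SLC1A4 without slow-frozen replicate 4, and SLC7A2 among those without vitrified replicate 1), and 0 to 0 past the adjustment or the study's thresholds. Genes whose groups do not overlap numbered 1, but 2 after plain subtraction, without loess or with median centring, and 1 to 5 with a pool left out. For the alternatives the share of all genes called or not overlapping is not given. Groups of fewer pools also fail to overlap more easily, so these counts cannot be set beside the main ones. The median difference of -0.05 was 0.058 among Cy5 pools and -0.07 among Cy3 pools, and -0.07 to 0.02 with a pool left out. The cause of these shifts was not tested. Of 355 values of the 18 other named genes under the alternatives, 28 in 12 genes changed sign. The stricter filter gave no value for SLC7A1, SLC7A2, SLC3A1, SLC6A9 and SLC36A1. Features near background, as those of SLC7A1 and SLC1A6, limit what a difference can show.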
